A study of Homo sapiens with 12 samples.

Results

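The MCM helicase and origin-firing genes described here are 10 genes that prepare and start DNA replication. They comprise the 6 ring subunits MCM2, MCM3, MCM4, MCM5, MCM6 and MCM7, the loading factors CDC6 and CDT1, and the firing factors MCM10 and CDC45. They were chosen by gene symbol from a table of 61806 genes, each symbol matched 1 gene, and all 10 were among the 17447 genes that passed a filter on low counts. The samples were TPC-1 and K1 cells, both established lines of human papillary thyroid carcinoma, harvested 24 h after transfection. Each line received either a negative control siRNA, with the genotype labelled WT, or siRNA against TRIM35, which encodes a tripartite motif protein, with 3 libraries in each of the 4 groups and 12 in all. A TPC-1 control library, number 3, carries a different line name in its title; its remaining labels and its column say TPC-1, and it was kept in that group. Nothing in the labels says that the libraries of a group came from separate cultures, so the p-values measure the spread between libraries, which may be technical.

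Replication origins are prepared in G1 phase, when the origin recognition complex, CDC6 and CDT1 load MCM2 to MCM7 onto DNA as an inactive ring. In S phase, kinases convert the ring into the active helicase by joining it to CDC45 and the GINS complex, and MCM10 helps to start unwinding. Transcription of many of these genes is controlled by E2F factors and follows the cell cycle, and the level of MCM proteins is widely used in pathology as a sign of proliferating cells. These are bulk RNA data, in which fewer cells in the cycle and less RNA per cell cannot be told apart.

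Library totals ranged from 16705044 to 22928861 counts. TRIM35 (ENSG00000104228), the targeted gene, stood at 2.86, 2.91 and 3.06 FPKM (counts scaled to the exonic length of the gene and the library total) with control siRNA in TPC-1 and at 2.34, 2.56 and 2.58 in the libraries labelled TRIM35 siRNA. In K1 the control values were 1.51, 1.85 and 1.47 FPKM and those of the libraries labelled TRIM35 siRNA 1.20, 1.49 and 1.53. The groups did not overlap in TPC-1 and overlapped in K1. On the log2 scale the fold change was -0.24 (SE 0.16) in TPC-1 and -0.19 (SE 0.17) in K1, with an adjusted p of 1 in both (edgeR quasi-likelihood test, Benjamini-Hochberg adjustment over all genes tested). An exact two-sided permutation test of the log2 counts scaled to library size gave p = 0.1 in TPC-1 and p = 0.5 in K1. The former is the smallest that 3 libraries against 3 allow. Lower TRIM35 mRNA in the libraries labelled TRIM35 siRNA was therefore not established by these tests. Of 10 thyroid follicular markers, PAX8, FOXE1 and HHEX reached 1 FPKM in some library and NKX2-1 had none in any. The list summed to 24.84 to 28.46 FPKM in TPC-1 control libraries and to 122.9 to 136.6 in K1. Epithelial markers summed to 39.99 to 47.73 FPKM in TPC-1 control and 53.8 to 77.58 in K1 control libraries. Leukocyte markers summed to 0.36 to 0.68 FPKM in TPC-1 control and 4.39 to 5.97 in K1 control, fibroblast markers to 1.80 to 2.12 and 1.23 to 1.55, and endothelial markers to 0.19 to 0.38 and 1.47 to 1.72. Only 1 gene reached 1 FPKM in any library in the leukocyte (CD14), fibroblast (PDGFRB) and endothelial (KDR) lists. Of 5 fibroblast markers tested in control libraries, 3 were called higher in K1 and 1, PDGFRB, lower. Of 3 endothelial markers tested, KDR was called higher and TEK lower. Over all genes tested, 35.8% were called higher and 32.1% lower (edgeR adjusted p under 0.05). The part of these marker differences in the results below was not tested.

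Promoter sequence was available in the RefSeq promoter table (GRCh38.p14, 250 bases before to 50 after each annotated start) for 8 of the 10 genes. It was searched on both strands for the 4 E2F words TTTGGCGC, TTTCCCGC, TTTCGCGC and TTTGCCGC, the spellings of the E2F consensus that were chosen for this search. The stretches below are shown because they carry those words, which stand in capitals, in 6 of the 8 genes: MCM2 at chr3:127598386-127598433 (plus strand), MCM3 at chr6:52284733-52284774 (minus), MCM6 at chr2:135876516-135876605 (minus), MCM7 at chr7:100101386-100101415 (minus), CDC6 at chr17:40287861-40287903 (plus) and CDT1 at chr16:88803739-88803788 (plus).
MCM2: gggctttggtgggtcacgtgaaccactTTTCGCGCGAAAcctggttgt
MCM3: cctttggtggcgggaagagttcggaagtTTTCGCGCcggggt
MCM6: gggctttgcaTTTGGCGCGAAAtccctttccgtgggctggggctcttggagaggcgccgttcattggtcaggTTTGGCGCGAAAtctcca
MCM7: ggggcgacgTTTCGCGCcaatttcggttgg
CDC6: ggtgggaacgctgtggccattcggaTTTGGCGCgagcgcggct
CDT1: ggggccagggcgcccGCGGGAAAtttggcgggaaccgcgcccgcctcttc

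In MCM2 and at both places in MCM6 a word on each strand overlaps the other, which makes the capitals longer, and in CDT1 the word is read on the opposite strand. The 8 genes have 12 promoters in the table, of which 6 carried at least 1 of these words. For MCM7 the words lay only in the promoter with its start at 100101397, and its other promoters had none. Promoters with at least 1 of these words made up 3.31% of the 35116 promoters in the table, and 3.99% of the 27305 genes had such a promoter (5.40% of the 15843 protein-coding genes). None of the words was found in the windows of CDC45 and MCM10. The MCM10 stretch at chr10:13161433-13161467 (plus strand) is shown because it carries the CCAAT box, the word bound by NF-Y, at 2 places.
MCM10: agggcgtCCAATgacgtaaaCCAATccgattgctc

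The word CCAAT, on either strand, was present in CDC45, CDC6, MCM10, MCM3, MCM6 and MCM7 and absent from the windows of CDT1 and MCM2, and 39.7% of all genes had it. The word TTTGAA, a spelling of the cell cycle homology region of late cell cycle genes, was in none of the 8 and in 18.2% of all genes. A word in these windows is a description of the sequence and was not tested for binding.

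All 10 genes were lower in K1 than in TPC-1, by 2.60 times for MCM7 to 33.1 times for MCM10, and in every case the K1 control libraries lay below all TPC-1 control libraries. The firing factor MCM10 and the loading factor CDC6 differed most, the ring subunits MCM7, MCM6 and MCM2 least. Over the 17447 genes tested, 32.1% were called lower in K1 control libraries at an adjusted p under 0.05 and 31.3% did not overlap in that direction. The 2 lines differ in many genes, 67.9% of those tested in either direction (68.3% in the siRNA libraries), so that a call alone is common here. The median log2 fold change of the 10 genes was -2.88, against 0.06 over all genes tested. In the siRNA libraries of the same lines, all 10 were again called lower in K1 (32.4% of all genes) with no overlap (30.2%), and the median was -2.93 against 0.06.

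**Figure D1:**
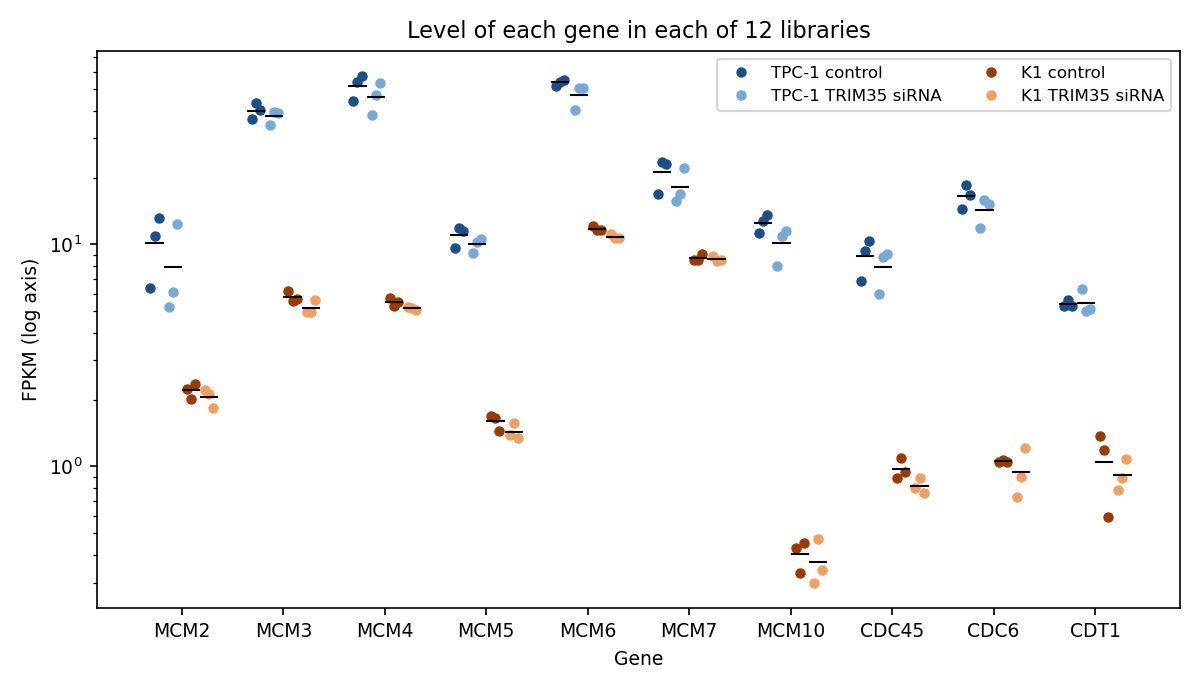
FPKM (log axis) of each of the 10 genes in each of the 12 libraries; points are libraries and bars are the means of 3 libraries in a group. For every gene the 6 K1 points lie below the 6 TPC-1 points, with MCM10 at 0.30 to 0.47 FPKM in K1 and 8.01 to 13.56 in TPC-1.

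CDC6 (ENSG00000094804, chr17:40287879-40304657, plus strand), the ATPase that helps load the ring onto DNA, measured 14.5, 18.54 and 16.61 FPKM in the TPC-1 control libraries and 1.05, 1.07 and 1.05 in those of K1. It thus sat near 1 FPKM in each K1 control library, on 65 to 128 counts over the 6 K1 libraries. The means were 16.55 ± 2.02 and 1.06 ± 0.0115 FPKM (SD, n = 3 each), and the log2 fold change was -4.06 (SE 0.21), a level 16.7 times lower with a 95% interval of 12.3 to 22.7 (edgeR adjusted p = 8.98e-11). CDT1 (ENSG00000167513, chr16:88803789-88809258, plus strand), which brings the ring subunits to the origin, measured 5.28, 5.61 and 5.27 FPKM in TPC-1 control libraries. In K1 control libraries it measured 1.37, 1.19 and 0.59 FPKM, a wider spread on 27 to 87 counts in K1. The log2 fold change of CDT1 was -2.42 (SE 0.25), or 5.34 times lower (95% interval 3.72 to 7.67, edgeR adjusted p = 3.59e-07). Of the 10 genes, CDT1 had the lowest level in TPC-1 control libraries, 5.39 ± 0.193 FPKM, whereas in K1 its libraries overlapped those of CDC6 and CDC45 and all lay above those of MCM10.

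Among the ring subunits, MCM4 (ENSG00000104738, chr8:47960185-47978160, plus strand), a subunit of the catalytic core together with MCM6 and MCM7, had the largest difference. It measured 44.23, 53.76 and 57.3 FPKM in TPC-1 control libraries and 5.76, 5.27 and 5.5 in K1 control libraries. The log2 fold change was -3.33 (SE 0.16), 10.04 times lower in K1 (95% interval 7.90 to 12.8, edgeR adjusted p = 5.49e-11). MCM3 (ENSG00000112118, chr6:52264014-52284881, minus strand) measured 36.55, 43.22 and 40.4 FPKM in TPC-1 and 6.19, 5.57 and 5.7 in K1 control libraries. MCM5 (ENSG00000100297, chr22:35400134-35425431, plus strand), which forms with MCM2 the gate through which the ring opens, measured 9.67, 11.82 and 11.53 FPKM in TPC-1 and 1.69, 1.66 and 1.45 in K1. MCM3 and MCM5 are lower by nearly the same factor although their levels differ: the log2 fold change was -2.88 (SE 0.14) for MCM3 and -2.87 (SE 0.14) for MCM5, with edgeR adjusted p of 6.91e-11 and 6.57e-11.

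MCM6 (ENSG00000076003, chr2:135839626-135876443, minus strand) measured 51.74, 53.99 and 55.17 FPKM in TPC-1 control libraries and 12.16, 11.58 and 11.61 in K1 control libraries. By FPKM it was the highest of the 10 genes in K1, above MCM7 in every K1 library, and in TPC-1 control its libraries overlapped those of MCM4. Its log2 fold change was -2.28 (SE 0.13), 4.86 times lower (95% interval 4.01 to 5.90, edgeR adjusted p = 4.06e-10). MCM2 (ENSG00000073111, chr3:127598410-127622436, plus strand), whose N-terminal tail binds histones, measured 6.35, 10.9 and 13.16 FPKM in TPC-1 control libraries and 2.24, 2.02 and 2.34 in K1 control libraries. Its TPC-1 libraries spread over a factor of 2.07, and its log2 fold change of -2.31 had the largest SE of the 10 genes, 0.30 (edgeR adjusted p = 5.21e-06). An antisense gene, ENSG00000285600, overlaps MCM2 by 2331 bases and had 0 to 8 counts per library; without strand the reads of the pair cannot be told apart.

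MCM7 (ENSG00000166508, chr7:100092728-100101940, minus strand) had the smallest difference between the lines. Its control libraries measured 16.81, 23.59 and 23.02 FPKM in TPC-1 and 8.53, 8.55 and 9.06 in K1. Its log2 fold change was -1.38 (SE 0.16), 2.60 times lower (95% interval 2.06 to 3.28, edgeR adjusted p = 1.32e-06). In the siRNA libraries it was 2.25 times lower in K1 (95% interval 1.79 to 2.84, edgeR adjusted p = 7.55e-06). In the annotation of the table, MCM7 overlaps AP4M1, a gene of the opposite strand that encodes an adaptor protein subunit of vesicle sorting, by 392 bases (chr7:100101549-100101940). No source used here says whether counting used strand. Without it, reads of MCM7 and AP4M1 cannot be told apart within that overlap.

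MCM10 (ENSG00000065328, chr10:13161558-13211110, plus strand) measured 11.2, 12.76 and 13.56 FPKM in TPC-1 control libraries, on 811 to 1414 counts over the 6 TPC-1 libraries. In K1 control libraries it measured 0.43, 0.33 and 0.45 FPKM, on 27 to 54 counts over the 6 K1 libraries, and it was the lowest of the 10 genes in that line. Its log2 fold change was -5.05 (SE 0.21), 33.1 times lower (95% interval 24.2 to 45.1, edgeR adjusted p = 9.47e-12). In the siRNA libraries MCM10 was 29.3 times lower in K1 (95% interval 21.4 to 40.1). CDC45 (ENSG00000093009, chr22:19479457-19520612, plus strand), a part of the active helicase, measured 6.84, 9.33 and 10.34 FPKM in TPC-1 control libraries and 0.89, 1.09 and 0.94 in K1 control libraries, the latter on 40 to 73 counts over the 6 K1 libraries. The log2 fold change of CDC45 was -3.27 (SE 0.22), 9.66 times lower (95% interval 7.02 to 13.3, edgeR adjusted p = 2.13e-09).

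The order of the 10 differences was nearly the same in the siRNA libraries, with MCM4 and CDC45 changing places and MCM2 and MCM6 changing places. The log2 fold changes there were -4.87 for MCM10, -4.00 for CDC6, -3.38 for CDC45, -3.26 for MCM4, -2.96 for MCM3, -2.90 for MCM5, -2.66 for CDT1, -2.22 for MCM6, -2.04 for MCM2 and -1.17 for MCM7. The siRNA libraries are other libraries of the same 2 lines, so that they repeat the measurement and add no further cell line. The sizes depend on the scale for genes that are low in K1: with limma on log2(FPKM + 1) the MCM10 difference was -3.26 and the CDC6 difference -3.09, since the added constant is larger than or near the K1 level.

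**Figure D2:**
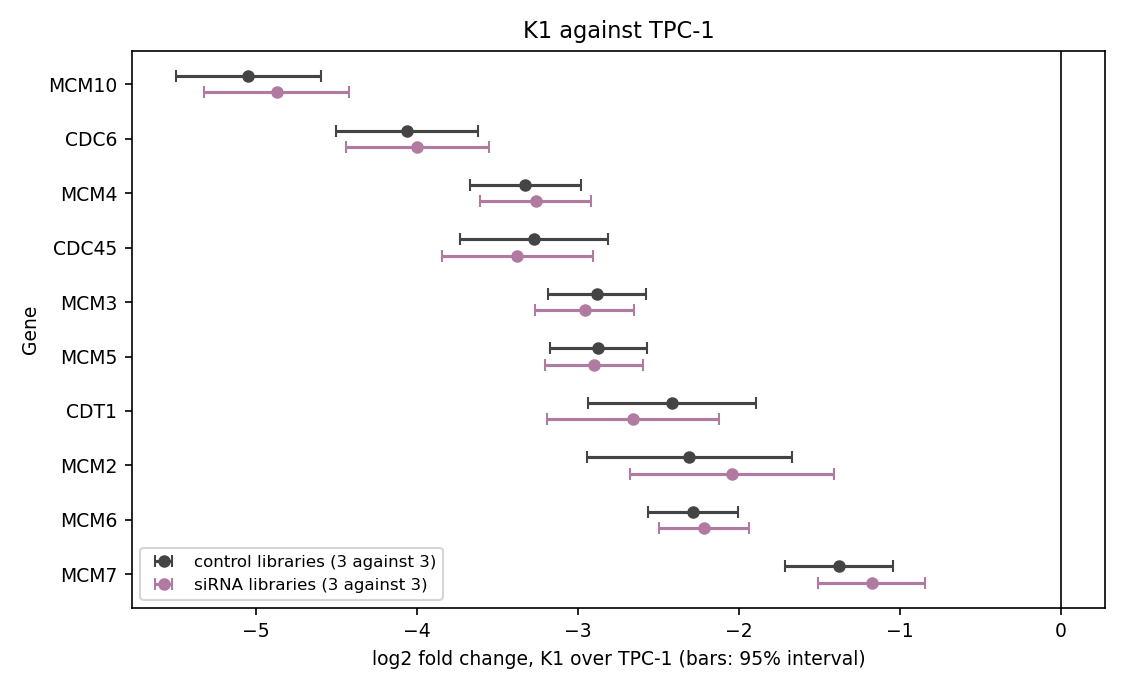
Log2 fold change of K1 over TPC-1 for each gene in control and in siRNA libraries (points), with 95% intervals (bars), 3 libraries against 3. All intervals lie below 0, from MCM10 at -5.05 to MCM7 at -1.38 in the control libraries.

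Because the subunits differed by unequal factors, the makeup of the summed MCM2 to MCM7 mRNA was not the same in the 2 lines. MCM4 made up 27.5% ± 0.939 of the summed FPKM in TPC-1 control libraries and 15.5% ± 0.273 in K1, whereas MCM7 made up 11.2% ± 0.927 in TPC-1 and 24.5% ± 1.06 in K1 (SD, n = 3 each). The share of MCM6 was 28.7% ± 2.23 in TPC-1 and 33.1% ± 0.457 in K1. MCM3 stood at 21.4% ± 1.08 and 16.3% ± 0.520, and MCM5 at 5.86% ± 0.122 and 4.49% ± 0.379. The share of MCM2 was 5.31% ± 1.37 in TPC-1 and 6.17% ± 0.368 in K1, with overlapping libraries. Between K1 and TPC-1 control, the share differed by 13.3 percentage points for MCM7, 4.36 for MCM6, -1.37 for MCM5, -5.06 for MCM3 and -12.1 for MCM4. For these 5 subunits the libraries of the 2 lines did not overlap, in control and in siRNA libraries alike. The exact two-sided permutation test gave p = 0.1 for each, the smallest that 3 libraries against 3 allow, and 0.12 after adjustment over the 6 subunits. For MCM2 the exact permutation test gave p = 0.4. With 3 libraries against 3, this permutation test cannot reach a p under 0.05.

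By FPKM, MCM4 and MCM6 were the leading subunits in TPC-1 control libraries and MCM6 and MCM7 in those of K1. By raw counts MCM4 was the highest subunit in each K1 control library, with 1302, 1168 and 906 counts against 1153, 1076 and 802 for MCM6. In the siRNA libraries the differences were 15.03 points for MCM7, 4.35 for MCM6, -1.72 for MCM5, -7.17 for MCM3 and -12.1 for MCM4. The summed FPKM of the 6 subunits was 188 ± 19.5 in TPC-1 control, 167 ± 22.9 in TPC-1 siRNA, 35.6 ± 0.960 in K1 control and 33.25 ± 0.530 in K1 siRNA libraries (SD, n = 3 each). Shares of FPKM rest on the exonic length in the table, which ranged from 3645 bases for MCM3 to 9852 for MCM4. With raw counts in place of FPKM the differences of MCM3, MCM4 and MCM5 kept their sign and were -1.85, -16.9 and -0.98 points.

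**Figure D3:**
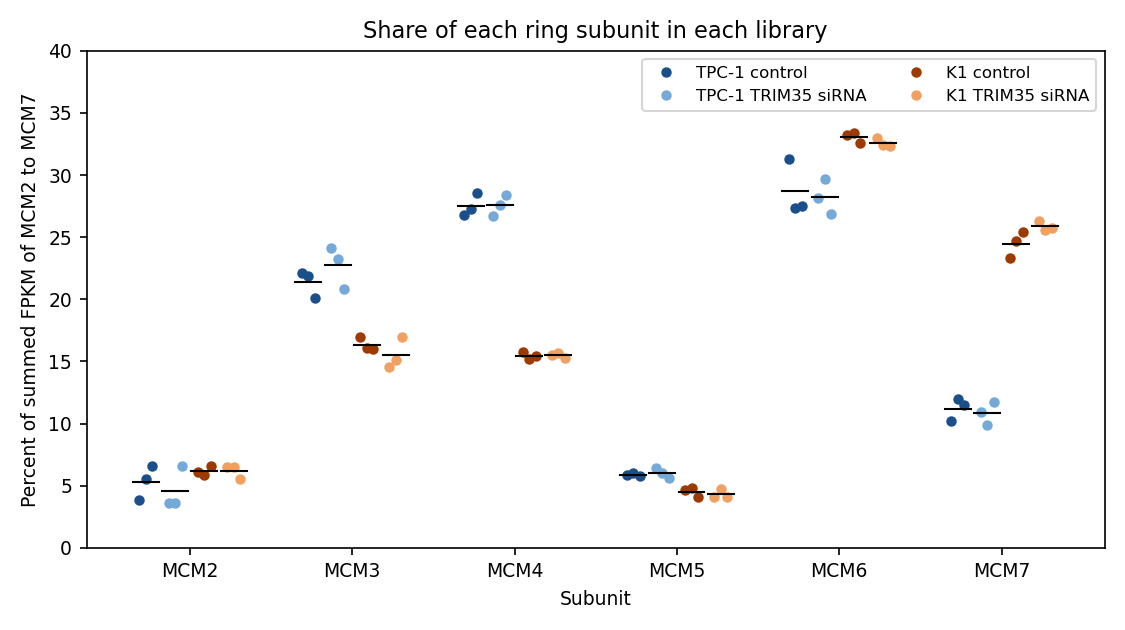
Percent of the summed FPKM of MCM2 to MCM7 that each subunit held in each library; points are libraries and bars are the means of 3 in a group. In control libraries MCM4 stands at a mean of 27.5% in TPC-1 and 15.5% in K1 and MCM7 at 11.2% and 24.5%, while MCM2 overlaps.

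Other genes of the same pathway were mostly lower in K1 too. Among 10 partners in origin licensing, such as the origin recognition complex and its regulators, 7 were called lower in K1 control libraries, none higher, and the median log2 fold change was -0.94. GMNN, the inhibitor that binds CDT1, was at -3.01 (SE 0.16), ORC1 at -4.14 (SE 0.33), ORC6 at -2.84 (SE 0.17) and ORC3 at -1.59 (SE 0.14). Among 16 partners in origin firing, all were called lower, with a median of -2.47. They include the GINS subunits GINS1 at -3.15 (SE 0.14) and GINS2 at -4.28 (SE 0.23), the checkpoint mediator CLSPN at -4.72 (SE 0.26) and the fork protein WDHD1 at -2.94 (SE 0.18). Of 27 fork enzymes, 26 were called lower and POLD4, a small subunit of DNA polymerase delta, was called higher by 1.25, with a list median of -1.68. RFC3 and DSCC1, which belong to clamp loaders, was at -3.17 (SE 0.14) and -3.49 (SE 0.16), POLE2 of DNA polymerase epsilon at -3.18 (SE 0.18) and the flap nuclease FEN1 at -2.32 (SE 0.15). All these calls are from edgeR at an adjusted p under 0.05 over all genes tested, where 32.1% were called lower and 35.8% higher (35.9% higher in the siRNA libraries).

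Of 8 genes that remove CDT1 in S phase, 4 were called lower in K1 control libraries and none higher, with a median of -0.34. The shares over all genes tested were 32.1% lower and 35.8% higher. DTL, the substrate receptor that recognises CDT1 on the sliding clamp, was called lower, at -4.84 (SE 0.18), as was the F-box protein SKP2 at -1.56 (SE 0.16). The scaffolds CUL4A and CUL1 were also called lower but differed less, at -0.40 (SE 0.10) and -0.42 (SE 0.12). MCM8 and MCM9, paralogs of the ring subunits that act in homologous recombination, were called lower, at -0.69 (SE 0.15) and -1.04 (SE 0.18). Their partner HROB stood at -0.45 (SE 0.22, edgeR adjusted p = 0.0835) in control libraries, and MCMDC2 was called higher by 1.33 (SE 0.54) on 2 to 5 counts in TPC-1 and 10 to 14 in K1. In the siRNA libraries HROB was called lower too, at -0.70 (SE 0.22), and MCMDC2 higher, at 2.35 (SE 0.55).

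Of 14 S-phase enzymes and E2F factors, 12 were called lower in K1 control libraries, with a list median of -2.99, where 32.1% of all genes tested were called lower. E2F7, a repressor of the family, was called higher by 0.87, where 35.8% of all genes tested were called higher. Thymidine kinase TK1 was at -3.19 (SE 0.16), thymidylate synthase TYMS at -3.38 (SE 0.20), the phosphatase CDC25A at -3.60 (SE 0.21) and UHRF1, which helps copy DNA methylation, at -3.65 (SE 0.15). All 18 genes of a mitosis and proliferation list were called lower, with a median of -2.51, close to the -2.88 of the 10 genes. BUB1B, a spindle checkpoint kinase, was at -2.83 (SE 0.12), the mitotic kinase AURKB at -3.11 (SE 0.15), the spindle motor KIF11 at -2.88 (SE 0.15) and the kinetochore protein CENPF at -2.67 (SE 0.14). That list summed to 1139 to 1253 FPKM in TPC-1 control libraries and to 219 to 240 in K1 control libraries. Its part in the difference of the 10 genes was not tested.

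Of 7 CDK inhibitors, which hold back entry into S phase, 3 were called lower in K1 control libraries and 2 higher. Over all genes tested, 32.1% were called lower and 35.8% higher, so that calls in both directions are common here. CDKN2A had 1022 to 1538 counts in TPC-1 control libraries and 0 to 1 in K1 control libraries, and CDKN2B had 124 to 175 in TPC-1 and 0 in each K1 control library. CDKN2C was lower, at -2.06 (SE 0.18). CDKN1C was higher in K1, at 1.24 to 1.68 FPKM in TPC-1 control libraries and 60.18 to 85.2 in K1 control libraries, and CDKN1A, the inhibitor induced by p53, was higher by 0.33 (edgeR adjusted p = 0.0369).

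Of the 10 genes, 4 start close to a gene of the opposite strand that runs the other way, within 1000 bases. MCM2 and TPRA1, a membrane protein gene, start 143 bases apart in the table's annotation, MCM4 and PRKDC, the catalytic subunit of the DNA-dependent protein kinase, 7 bases, and CDC45 and UFD1, a cofactor of protein degradation, 255 bases. MCM7 and AP4M1 have several annotated starts in RefSeq, and the pairs found lie 40, 246, 265 and 889 bases apart. TPRA1 measured 2.60, 2.36 and 2.55 FPKM in TPC-1 control libraries and 8.28, 7.20 and 7.17 in K1 control libraries, the opposite direction to MCM2. It was 2.83 times higher in K1 (SE of the log2 fold change 0.16, edgeR adjusted p = 5.72e-07), and AP4M1 was higher by 0.54 (SE 0.17, edgeR adjusted p = 0.00972). PRKDC measured 38.25, 31.76 and 46.36 FPKM in TPC-1 control libraries and 11.59, 12.4 and 14.68 in K1, lower as MCM4 was. PRKDC had a log2 fold change of -1.69 (SE 0.17, edgeR adjusted p = 3.16e-07) and UFD1 one of -1.15 (SE 0.14, edgeR adjusted p = 2.75e-06). In the siRNA libraries the log2 fold changes were 1.41 for TPRA1, 0.40 for AP4M1, -1.45 for PRKDC and -1.06 for UFD1.

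With siRNA against TRIM35, none of the 10 genes was called changed in either line, and neither was any of the 17447 genes tested with edgeR (0% called in both). Without the filter on low counts, 2 genes were called in each line, none of them among the 10. In TPC-1 the mean FPKM of 9 of the 10 was somewhat lower in the siRNA libraries, CDT1 being the exception, and in K1 that of all 10 was. The estimated log2 fold changes in TPC-1 ran from -0.36 for MCM2 to 0.02 for CDT1, with a median of -0.17 against 0.00 over all genes tested. They were below 0 for 9 of 10 genes, and for 49.2% of all genes tested. In K1 they ran from -0.25 for CDC45 to -0.01 for MCM7, with a median of -0.13 against 0.00, and were below 0 for 10 of 10, and for 51.0% of all genes tested. Every adjusted p of the 10 was 1 in edgeR, and 0 of 10 had an unadjusted p under 0.05 in either line, where all genes tested had 337 (1.93%) in TPC-1 and 136 (0.780%) in K1. DESeq2 called 2 genes in TPC-1 and 0 in K1, none of them among the 10, and limma called 0 in both lines.

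In TPC-1, where same-numbered libraries deviated together, 9 of the 10 genes, all but CDT1, had a lower FPKM with TRIM35 siRNA than with control siRNA in each of the 3 same-numbered pairs, as did 14.1% of all genes tested. This count was added after the values were seen. For MCM4 the pairs were 44.23 and 38.08, 53.76 and 46.96, and 57.3 and 53.44 FPKM. With the replicate number as a block, 0 of the 10 were called (edgeR adjusted p = 1 for each). Taken without pairs, MCM6 was the only one of the 10 with separated groups in TPC-1, with 51.74, 53.99 and 55.17 FPKM in control and 40.22, 50.6 and 50.53 in siRNA libraries (2.06% of all genes lay entirely below in this way). Its siRNA level was 88.1% of control, with a 95% interval of 73.3 to 106. In K1 MCM6, at 12.16, 11.58 and 11.61 against 11.17, 10.67 and 10.68, and MCM4, at 5.76, 5.27 and 5.5 against 5.25, 5.15 and 5.04, did not overlap (2.85% of all genes). MCM10 in TPC-1 stood at 12.5 ± 1.20 FPKM with control siRNA and 10.2 ± 1.89 with TRIM35 siRNA (SD, n = 3), 81.5% of control with an interval of 63.9 to 104, and its libraries at 11.2, 12.76 and 13.56 overlapped those at 8.01, 10.91 and 11.55. MCM3 stood at 94.4% of control in TPC-1, with an interval of 77.7 to 115. MCM2 stood at 78.0% with the widest interval, 51.7 to 118, and its siRNA libraries measured 5.2, 6.11 and 12.38 FPKM. The estimate for MCM2 rested on single libraries: it ranged from -0.83 to -0.10 when each library was left out in turn.

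**Figure D4:**
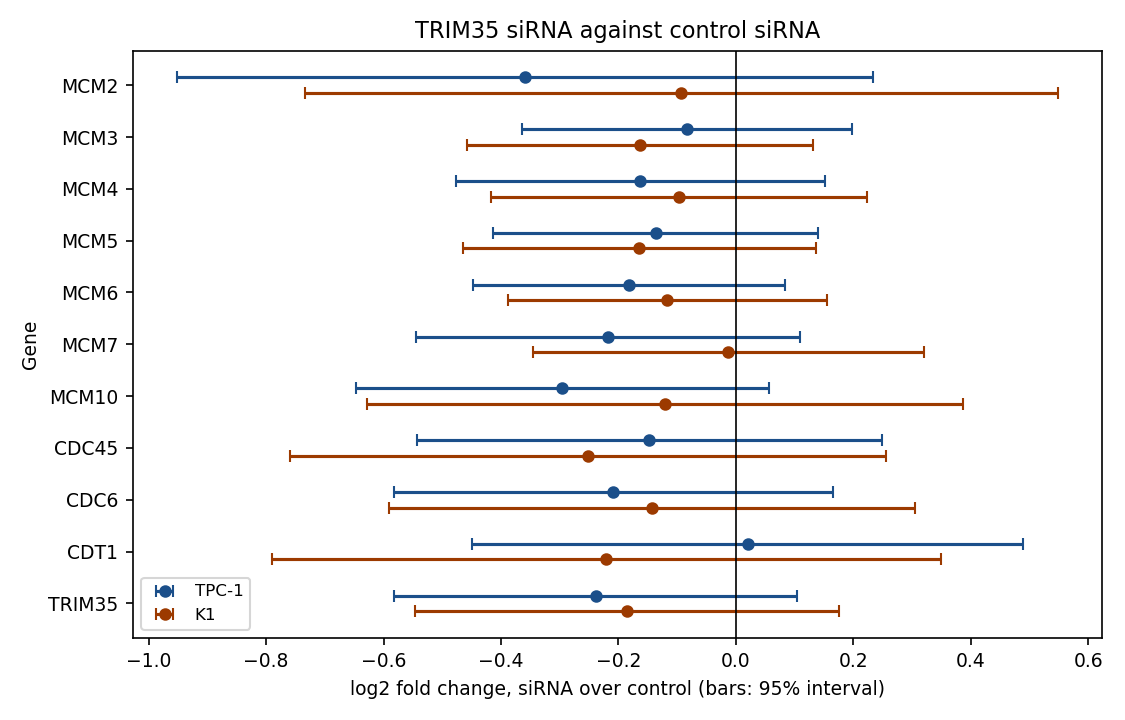
Log2 fold change of TRIM35 siRNA over control siRNA in TPC-1 and K1 for each of the 10 genes and TRIM35 (points), with 95% intervals (bars), 3 libraries against 3. Every interval includes 0; the widest in TPC-1 is that of MCM2.

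The siRNA estimates of the 2 lines share no library. Their difference, K1 minus TPC-1, ranged from -0.24 for CDT1 to 0.27 for MCM2 on the log2 scale, and 0 of 10 passed the test (edgeR interaction contrast, adjusted p = 1.00 for each; 0% of all genes called and 1.73% at an unadjusted p under 0.05). None of the pathway lists had a gene called in either line. Their median siRNA estimates in TPC-1 were -0.03 for licensing partners, -0.08 for firing partners, -0.10 for fork enzymes and -0.03 for the mitosis list. The corresponding medians in K1 were 0.01, 0.03, -0.05 and -0.12.

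Libraries of the same TPC-1 group differed from each other by as much as the siRNA estimates. In both TPC-1 groups, 9 of the 10 genes were lowest in library 1, all except CDT1, where 38.5% of all genes tested were lowest in library 1 of the control group and 29.5% in that of the siRNA group. The summed FPKM of the 6 ring subunits was 165.35, 197.28 and 200.58 in control libraries 1, 2 and 3, and 142.69, 170.32 and 188.24 in siRNA libraries 1, 2 and 3. Library 1 was the lowest in both. The mean deviation of the 10 genes from their group means, in log2 counts scaled to library size, was -0.24, 0.11 and 0.13 in the control libraries and -0.26, 0.07 and 0.19 in the siRNA libraries.

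MCM2 carried the largest part of this spread. Its level in library 3 was 2.07 times that in library 1 in the control group and 2.38 times in the siRNA group. The SD of its log2 level within groups in TPC-1 was 0.62, at the 99.2 percentile of 6177 genes compared, whereas in K1 it was 0.09. CDC45 followed with an SD of 0.35 and library 3 to library 1 ratios of 1.51 and 1.52, and MCM7 with an SD of 0.28 and ratios of 1.37 and 1.41. In K1 the least even gene was CDT1, with an SD of 0.55. Leaving out library 1 of both TPC-1 groups, an alternative chosen after seeing the data, left 10 of 10 genes called lower in K1 and 0 of 10 called between siRNA and control.

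**Figure D5:**
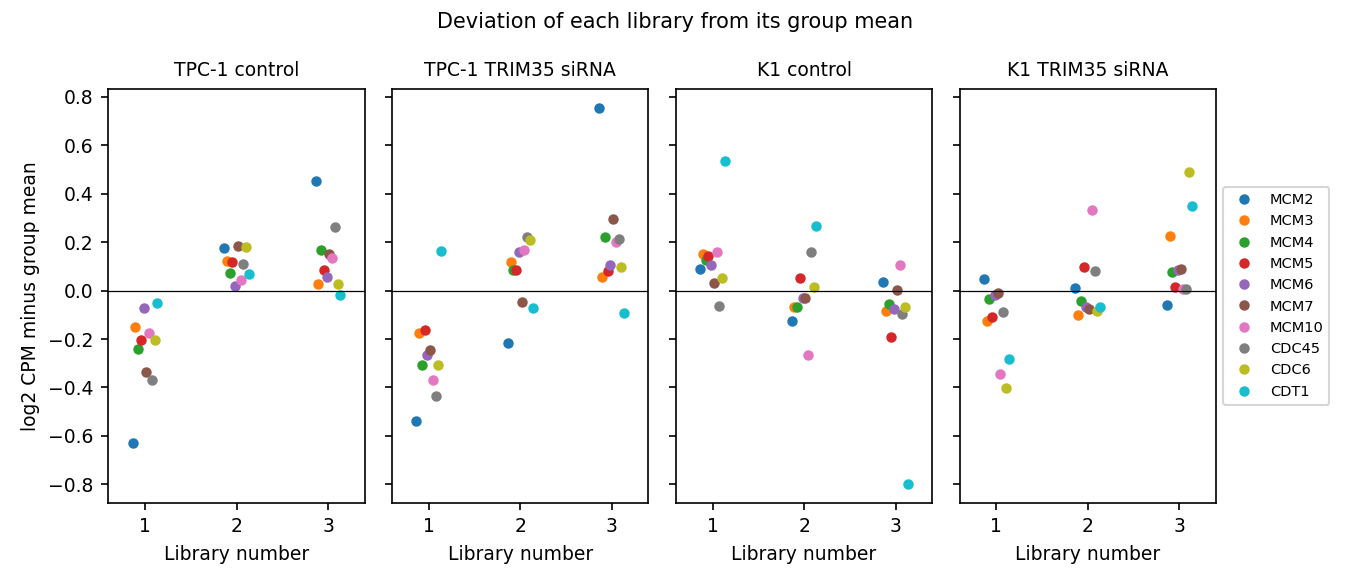
Deviation of each library from the mean of its group in log2 CPM (scaled counts), by library number, in each of the 4 groups; each point is 1 of the 10 genes. In both TPC-1 groups the points of library 1 lie below 0 except CDT1 of the siRNA group, and MCM2 spreads most.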

How the data were processed

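Total RNA of 12 libraries was sequenced after random-primed cDNA synthesis, per the labels' protocols. The submitters' processing notes name cutadapt 1.9.1 and build hg38. For the aligner, the counter, its annotation and its use of strand, the entry is: not given in the sources used here. In their table the authors deposited whole-number read counts per gene and FPKM values. Dividing each deposited count by the gene size in the table, in bases of exon, and by the library sum returned the FPKM within rounding.

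Counts were tested in R 4.3.3 with edgeR 4.0.16 (filterByExpr, TMM scaling, quasi-likelihood F test, 1 mean per group over all 12 libraries, 8 residual degrees of freedom). The 44359 genes removed held 0.0838% to 0.200% of the counts. P-values were adjusted by Benjamini-Hochberg over all 17447 genes and called under 0.05. A standard error is the absolute log2 fold change over the square root of F. Levels and shares use the deposited FPKM, which are not TMM-scaled. Alternatives were DESeq2 1.42.0, limma 3.58.1 on log2(FPKM + 0.1) and log2(FPKM + 1) for genes with at least 1 FPKM in 3 libraries, RLE and upper-quartile scaling, no filter, a replicate block, only the groups compared, and leaving out each library.

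Replicate numbers come from the labels. In TPC-1 the deviations of same-numbered control and siRNA libraries correlated at 0.71, 0.255 and 0.756 over 6427 genes, and they were treated as paired in the block fit. That fit used the number as a block in K1 too, where the same correlations were -0.773, 0.0268 and -0.781. Its K1 values therefore rest on a pairing that these correlations do not show. The 10 genes and all lists were chosen with earlier results of these data known. Named genes are the 10, TRIM35, up to 4 genes per other list with the smallest p in K1 against TPC-1 control, divergent neighbours and, for likeness, the 8 genes of highest correlation. POLD4, E2F7, the other E2F factors, CDKN1A and the promoter stretches were singled out after their values were seen. Intervals cover the fitted spread between libraries only. From the list of S-phase enzymes 1 gene was left out and is not reported here.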

Additional observations from a re-analysis of the deposited data

How the results depend on the processing

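All 10 genes were called lower in K1 under each of 21 alternatives, in control and in siRNA libraries, and 0 of 10 were called between siRNA and control or for the difference between lines. Upper-quartile scaling moved the median of all genes in the control comparison from 0.06 to 0.20. The replicate block changed no call of the 10 genes and left the count over all genes at 0 for siRNA in TPC-1 and 11747 for the lines in control libraries; in K1 same-numbered libraries correlated at -0.773, 0.0268 and -0.781, so the number does not pair them, and not every library correlated best with its own number. Counts over all genes moved as follows: siRNA in TPC-1, 2 with DESeq2 and 2 without the filter; siRNA in K1, 2 without the filter; the difference, 2 with DESeq2, 4 without the filter and 0 to 1 with single libraries left out. Counts in place of FPKM gave share differences of -1.85 points for MCM3, -16.9 for MCM4 and -0.98 for MCM5. No difference value could be had from only the groups compared, since it uses all 4.

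Small siRNA estimates changed sign, none of them called. With both TPC-1 libraries numbered 1 left out, CDT1 in TPC-1 became -0.0600 and the difference became -0.0506 for MCM6, -0.00874 for CDC6 and -0.0117 for TRIM35. With limma on log2(FPKM + 1) the difference became 0.0267 for MCM5 and 0.0201 for CDC45. Leaving out single libraries gave, in TPC-1, -0.128 to 0.0179 for MCM3, -0.278 to 0.0584 for CDC45 and -0.0496 to 0.0744 for CDT1. In K1 it gave -0.0424 to 0.0255 for MCM7, -0.32 to 0.0317 for MCM10, -0.401 to 0.0344 for CDC6 and -0.504 to 0.0498 for CDT1. For the difference it gave -0.201 to 0.00183 for MCM3, -0.0915 to 0.173 for MCM4, -0.123 to 0.0481 for MCM5, -0.0728 to 0.13 for MCM6, -0.0249 to 0.327 for MCM10, -0.309 to 0.0269 for CDC45, -0.21 to 0.243 for CDC6, -0.523 to 0.0288 for CDT1 and -0.0682 to 0.181 for TRIM35. The cause was not tested. MCM10, CDC45, CDC6 and CDT1 have few counts in K1, which limits their precision there.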

Other observations

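The 8 genes whose within-group deviations were most like the mean deviation of the 10 genes, over 12 libraries and 6419 genes compared, were SF3B4 (Pearson r 0.989), PHB1 (0.988), HNRNPUL1 (0.986), ATP5F1B (0.983), TSPAN17 (0.980), GRB2 (0.979), TMX1 (0.979) and PPA2 (0.976). They include a splicing factor, SF3B4, a subunit of the mitochondrial ATP synthase, ATP5F1B, and the signalling adaptor GRB2. Of the genes compared, 4.46% had an r above 0.9, and all of them share the 12 libraries and their depth.

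The ratio of library 3 to library 1 varied with the GC content of genes in TPC-1, with a Pearson r across genes of -0.16 over 6160 genes in the control group and -0.23 over 6161 in the siRNA group. Over the 10 genes r was 0.18 in the control group and -0.19 in the siRNA group. These are descriptions across genes, which are not independent replicates.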
